A study of Mus musculus with 4 samples.

Results

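The TRAV12 family is a group of V gene segments of the mouse T cell receptor alpha chain (TCRα). Its members were taken here as the clones whose first-listed V segment, without its allele, was TRAV12, TRAV12D or TRAV12N with any number. This rule found 7 V segments of the 101 seen in the TCRα tables, and 1555, 2046, 1881 and 2170 clones of 39463, 48790, 47291 and 53844 in WT replicate 1, WT replicate 2, Tet2/3 DKO replicate 1 and Tet2/3 DKO replicate 2. A clone is a distinct sequence, in most cases from framework region 1 (FR1) to framework region 4, and it holds the reads that carry that sequence.

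The libraries were TCR SMART-seq libraries, made by 5′ RACE from RNA of CD4 T cells of the spleen, of 2 WT and 2 Tet2/3 DKO mice, on average 25 days old. The Tet2/3 DKO mice carried a germline deletion of Tet2 (Tet2-/-) and a Tet3 flx/flx allele deleted by CD4Cre, so Tet3 is lost only in T lineage cells from the stage at which the CD4 promoter drives Cre, while Tet2 is absent from all cells. The sorted cells were live CD4+ TCRβ+ cells without CD25 and without binding of the αGalCer-loaded CD1d tetramer that marks iNKT cells. The labels number the libraries of each genotype as biological replicates.

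A TCRα chain is made in the thymus when recombination joins one V segment (TRAV) to one of the many J segments (TRAJ), with bases trimmed and added at the joint. The joint codes for the third complementarity-determining region (CDR3), which lies over the peptide when the receptor binds, while CDR1 and CDR2 are coded by the V segment itself. Recombination of this locus runs in steps: it starts with V segments near the J segments and with the J segments nearest to the V segments, which have high numbers, and can go on to more distant V segments and to J segments near the constant region, which have low numbers. In C57BL/6 mice a large part of the TRAV region is present in extra copies, and segments in these copies carry the letters D and N, while the others are called original copies here.

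On the mm10 build (GRCm38, chromosome 14), RefSeq places the D copies TRAV12D-1, TRAV12D-2 and TRAV12D-3 farthest from the J segments, from chr14:52844560-52845041 to chr14:52929789-52930282. The N copies follow, from TRAV12N-1 at chr14:53155607-53156088 to TRAV12N-3 at chr14:53240751-53241244. The original copies TRAV12-1, TRAV12-2 and TRAV12-3 are nearest, with TRAV12-1 at chr14:53538266-53538738 and TRAV12-3 at chr14:53621752-53622245. From TRAJ58, the outermost J segment found in these libraries, the D copies lie 1227 to 1312 kb away, the N copies 916 to 1001 kb and the original copies 535 to 619 kb. TRAV12-4, which RefSeq lists as a pseudogene, was the first-listed segment of no clone.

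The deposited clone sequences resolved 6 groups among these segments. TRAV12-1, TRAV12-2 and TRAV12-3 were never tied with another segment for the best hit. Every one of the 449 TRAV12D-1 clones was tied with TRAV12N-1, and every one of the 1696 TRAV12D-3 clones with TRAV12N-3, so neither N copy was ever listed first. TRAV12D-2 was listed first in 764 clones, 758 of them as a tie, and TRAV12N-2 in 1295 clones, none of them a tie. The commonest sequence from FR1 to the end of framework region 3 (FR3) was nevertheless the same for both, and in 1220 of the 1222 TRAV12N-2 clones with a pair of hits the listed alignments had equal scores. The D and N copies of one number are therefore given together below, as TRAV12D/N-1, TRAV12D/N-2 and TRAV12D/N-3, unless the listed names are the subject.

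The commonest sequence of each group from the start of CDR1 to the end of CDR2 is shown because these stretches tell the members apart, and CDR1 and CDR2 are in capitals.
TRAV12-1: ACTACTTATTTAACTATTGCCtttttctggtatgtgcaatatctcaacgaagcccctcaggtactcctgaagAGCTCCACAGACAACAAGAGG
TRAV12D/N-1: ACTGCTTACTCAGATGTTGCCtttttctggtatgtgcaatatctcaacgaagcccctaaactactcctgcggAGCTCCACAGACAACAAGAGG
TRAV12-2: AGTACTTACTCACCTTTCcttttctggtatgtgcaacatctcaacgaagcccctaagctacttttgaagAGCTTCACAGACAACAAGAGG
TRAV12D/N-2: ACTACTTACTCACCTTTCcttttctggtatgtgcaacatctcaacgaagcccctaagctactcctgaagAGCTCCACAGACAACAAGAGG
TRAV12-3: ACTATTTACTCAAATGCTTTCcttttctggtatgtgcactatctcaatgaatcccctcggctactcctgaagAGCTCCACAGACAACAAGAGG
TRAV12D/N-3: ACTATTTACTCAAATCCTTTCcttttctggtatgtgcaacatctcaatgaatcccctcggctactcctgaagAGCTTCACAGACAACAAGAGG
CDR1 had 18 bases (6 residues) in both groups numbered 2 and 21 bases (7 residues) in the other groups. TRAV12-2 and TRAV12D/N-2 differed in 1 base of CDR1, and so did TRAV12-3 and TRAV12D/N-3, whereas TRAV12-1 and TRAV12D/N-1 differed in 6. From FR1 to FR3 the original and the D/N group of one number were 94.4% identical for number 1, 96.3% for number 2 and 96.7% for number 3. The least alike pair of all was TRAV12-3 and TRAV12D/N-1 at 91.9%.

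The first question was how much of the TCRα repertoire used TRAV12 in each genotype. TRAV12 held 3.13% of the 172506 TCRα reads of WT replicate 1 (95% Wilson interval 3.05% to 3.21%) and 3.38% of the 216457 reads of WT replicate 2 (3.31% to 3.46%). It held 3.27% of the 195046 reads of Tet2/3 DKO replicate 1 (3.19% to 3.35%) and 3.18% of the 287799 reads of Tet2/3 DKO replicate 2 (3.11% to 3.24%). Both Tet2/3 DKO values lay between the WT values. The intervals cover the counting error of reads only. The reads carry no molecular identifiers, so PCR copies are counted as separate reads and the intervals may be too narrow for molecules. In RNA of many cells, more cells with a chain and more of its RNA per cell cannot be told apart. The means were 3.26% ± 0.18 in WT and 3.22% ± 0.06 in Tet2/3 DKO (SD over 2 libraries each), a difference within the spread of the replicates (exact permutation test over the 6 assignments of the labels, two-sided p = 1). With 2 libraries against 2 this test cannot give a p below 0.333. edgeR's quasi-likelihood test over 25 V families gave TRAV12 a log2 fold change of -0.02 (SE 0.17, adjusted p = 0.97), and 0 of the 25 families passed the adjusted threshold of 0.05 (0% of families). Of them 4 had an unadjusted p under 0.05, and DESeq2 called 0 with 1 at that level.

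Among the 6 groups, TRAV12D/N-2, TRAV12-3 and TRAV12D/N-3 were used most and TRAV12D/N-1 least. TRAV12D/N-2 held 0.821% and 0.971% of TCRα reads in the WT libraries against 0.946% and 0.764% in the Tet2/3 DKO libraries. TRAV12-3 held 0.730% and 0.823% in WT against 0.697% and 0.692% in Tet2/3 DKO, so that its genotypes did not overlap by reads, with WT higher. The Wilson intervals of its nearest pair of libraries overlapped (0.691% to 0.771% in WT replicate 1 and 0.661% to 0.735% in Tet2/3 DKO replicate 1). By clones its genotypes overlapped, at 0.925% and 1.051% of TCRα clones against 0.926% and 0.865%. TRAV12D/N-3 held 0.699% and 0.719% in WT against 0.736% and 0.720% in Tet2/3 DKO, and its genotypes did not overlap either, with Tet2/3 DKO higher, but the nearest pair of libraries, at 0.7188% and 0.7199%, had overlapping Wilson intervals (0.684% to 0.755% and 0.690% to 0.751%). By clones TRAV12D/N-3 overlapped, at 0.846% and 0.908% against 0.785% and 1.018%. The next pair, TRAV12-1 and TRAV12-2, could not be ordered, since their ranges over the 4 libraries, 0.309% to 0.406% and 0.305% to 0.393%, overlapped. TRAV12D/N-1 held 0.182% and 0.170% in WT against 0.175% and 0.243% in Tet2/3 DKO, the last of these with the library's largest TRAV12 clone in it. In every library TRAV12D/N-1 was below all 5 other groups.

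**Figure D1:**
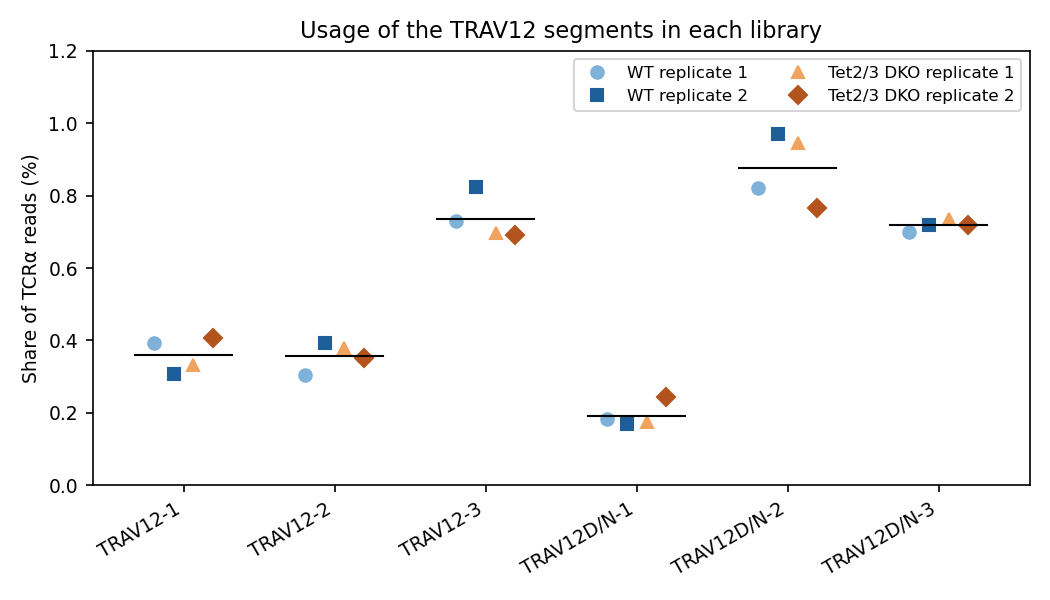
Share of TCRα reads (%, linear axis from 0) of the 6 resolvable TRAV12 groups, with 1 point per library and a line at the mean of the 4 libraries. TRAV12D/N-2 spans 0.764% to 0.971% and TRAV12D/N-1 0.170% to 0.243%, and WT (blue) and Tet2/3 DKO (orange) points mix in 4 of the 6 groups.

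In 2 of the 6 groups the genotypes did not overlap in usage, against 20% of the 75 V segments of at least 500 reads. In the edgeR test over 101 V segments, 0 were called (0% of segments; 3 had an unadjusted p under 0.05, and DESeq2 called 0 with 3 at that level). The log2 fold changes of the 7 listed TRAV12 segments ran from -0.20 for TRAV12D-2 (SE 0.28) to 0.25 for TRAV12D-1 (SE 0.31), and their adjusted p lay between 0.97 and 0.98. TRAV12-3 had -0.16 (SE 0.18). 4 of the 7 were above 0 and 3 below, and none had an unadjusted p under 0.05. With the D and N copies combined, TRAV12D/N-2 had -0.07 (SE 0.18) and TRAV12D/N-3 0.04 (SE 0.15), with an adjusted p of 0.94 for each.

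Original copies held 45.6% and 45.1% of TRAV12 reads in the WT libraries against 43.1% and 45.6% in the Tet2/3 DKO libraries. D and N copies together held the rest, 54.4% to 56.9%. By the first-listed name, D copies held 34.9% to 36.8% and N copies 17.6% to 20.6%, the latter all TRAV12N-2. When the reads of tied clones were divided equally among the tied segments, D copies held 17.5% to 18.4% and N copies 35.9% to 38.7%, so the balance of D against N in these tables rests on how ties were listed. The genotype means of the share of original copies were 45.3% ± 0.4 and 44.4% ± 1.7 (SD over 2 libraries each; exact permutation p = 1), which differed by -0.954 points. By clones, each taken once, the libraries had 47.1% and 45.7% in WT against 45.4% and 42.7% in Tet2/3 DKO, which did not overlap, and the difference was -2.37 points (exact permutation p = 0.333). Without the 10 largest TRAV12 clones of each library, a setting chosen after seeing the data, it was -2.03 points, again with no overlap. With each rearrangement counted once it was -2.06 points and the libraries overlapped, at 47.3% and 45.6% against 45.97% and 42.8% (exact permutation p = 0.667).

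TRAV12 clones held fewer reads each than other clones. A TRAV12 clone had 3.47 and 3.58 reads on average in WT against 3.39 and 4.21 in Tet2/3 DKO, while a clone of any other V segment had 4.41 and 4.47 in WT against 4.15 and 5.39 in Tet2/3 DKO. The TRAV12 share of clones, 3.94% to 4.19%, was accordingly higher than its share of reads in 4 of 4 libraries. Between 28.2% and 30.6% of TRAV12 clones rested on a single read.

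The original copies and the D and N copies were joined to different J segments. The mean TRAJ number, weighted by reads, was 33.3 and 34.7 for the original copies in the WT libraries against 33.4 and 32.99 in the Tet2/3 DKO libraries. For the D and N copies it was 21.04 and 20.9 in WT against 21.9 and 20.4 in Tet2/3 DKO. The difference within a library ran from 11.5 to 13.8 TRAJ numbers, with a mean of 12.5 ± 0.97 (SD, n = 4 libraries), and had the same sign in 4 of 4 libraries (exact sign permutation test, two-sided p = 0.125, the smallest that 4 libraries can give; Benjamini-Hochberg adjusted p = 0.167 over 4 such tests). The clones of original copies, which lie nearest to the J segments, thus used J segments of higher number, nearer to the V segments.

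The split between original and D/N copies held for the single groups. TRAV12D/N-2 had the lowest mean TRAJ number, from 19.9 to 20.6 over the libraries, and TRAV12D/N-3 had 19.1 to 22.9. These neighbours overlapped. TRAV12D/N-1 had 24.6 to 25.6, above both in every library. Its D copy lies 1312 kb from TRAJ58, against 1241 kb for TRAV12D-2 and 1227 kb for TRAV12D-3. Its N copy lies 1001 kb away, against 930 kb for TRAV12N-2 and 916 kb for TRAV12N-3. Among the D/N groups the mean TRAJ number thus did not rise with nearness to the J segments. The original groups lay higher again, at 29.7 to 33.4 for TRAV12-1, 31.9 to 35.4 for TRAV12-2 and 33.5 to 35.6 for TRAV12-3, and neighbours among these overlapped. The lowest library of any original group, 29.7, was above the highest library of any D/N group, 25.6. The 22.9 of TRAV12D/N-3 in Tet2/3 DKO replicate 1 was its highest value, and a single clone with TRAJ39 held 148 of the 1436 reads there. With each clone counted once, its values ran from 20.1 to 21.9.

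**Figure D2:**
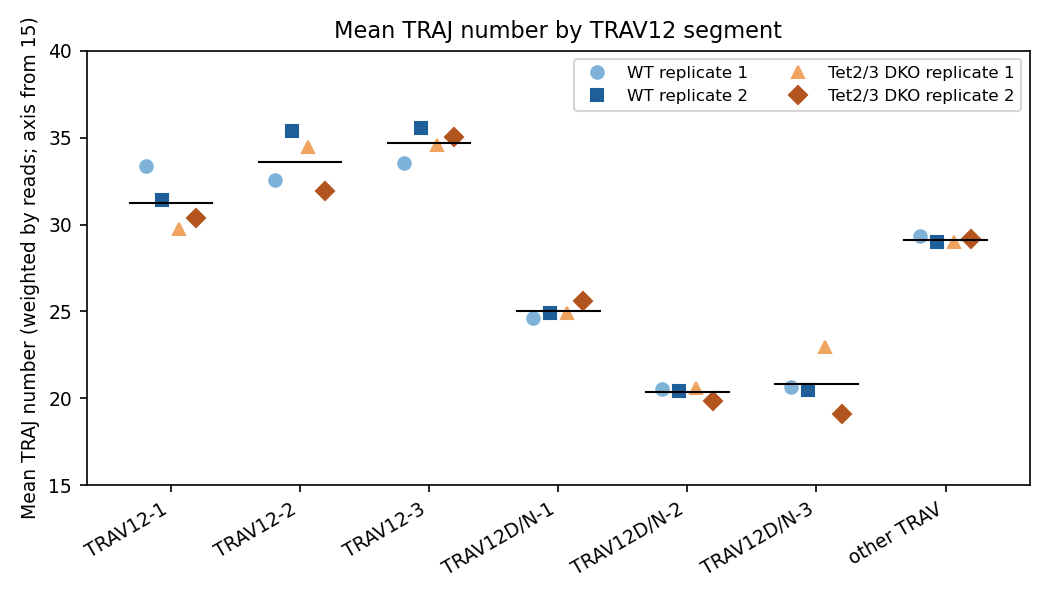
Mean TRAJ number weighted by reads (axis from 15) for the 6 TRAV12 groups and for all other TRAV together, with 1 point per library and a line at the mean. Original copies lie between 29.7 and 35.6 and D/N copies between 19.1 and 25.6 in all 4 libraries.

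The J segments themselves were TRAJ31, TRAJ23 and TRAJ37 in order of their mean share of TRAV12 reads. TRAJ31 held 7.34%, 6.50%, 8.42% and 7.06% of TRAV12 reads in WT replicate 1, WT replicate 2, Tet2/3 DKO replicate 1 and Tet2/3 DKO replicate 2. TRAJ23 held 4.76% to 5.97%, TRAJ37 4.18% to 5.15% and the next, TRAJ22, 3.82% to 6.003%. TRAJ23 was above TRAJ37 in every library, but the range of TRAJ22 took in both. TRAJ27, at 3.15% to 5.86%, was above TRAJ23 in WT replicate 2 and Tet2/3 DKO replicate 2. TRAJ9, at 3.37% to 5.80%, took in the range of TRAJ37. The places after TRAJ31 were therefore not resolved. TRAJ31 and TRAJ23 were also the most used J segments with all other V segments, with means of 7.39% and 5.29%. Within TRAV12 the copies differed. TRAJ37 held 8.23% ± 1.01 of the reads of original copies, where by mean it was second only to TRAJ31 at 9.24% ± 1.61 (SD, n = 4). This order was not resolved. TRAJ37 was above TRAJ31 in WT replicate 2 and Tet2/3 DKO replicate 2, and TRAJ39 was above TRAJ37 in WT replicate 1. By mean, the D and N copies were led by TRAJ23 at 6.61% ± 0.66, TRAJ22 at 6.22% ± 1.62, TRAJ12 at 5.86% ± 0.87 and TRAJ15 at 5.82% ± 0.48. TRAJ31 at 5.79% ± 0.42 and TRAJ9 at 5.75% ± 0.95 came next, and their ranges overlapped with those of TRAJ12 and TRAJ15. In Tet2/3 DKO replicate 2 TRAJ27 was highest at 8.35%, so this order was not resolved. TRAJ12 and TRAJ15 held 1.18% ± 0.58 and 1.22% ± 0.51 of the reads of original copies.

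Grouped by position, J segments numbered above 40 took 24.7% and 30.7% of the reads of original copies in WT against 22.9% and 26.2% in Tet2/3 DKO, and 3.98% to 6.13% of the reads of D and N copies over the 4 libraries. J segments numbered 20 and under took 9.82% to 15.7% of the reads of original copies and 45.5% to 49.0% of those of D and N copies. With all other V segments these classes took 19.8% to 20.9% and 24.5% to 26.0%. The middle class, 21 to 40, took 58.1% to 67.3% of the reads of original copies and 46.0% to 48.4% of those of D and N copies.

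**Figure D3:**
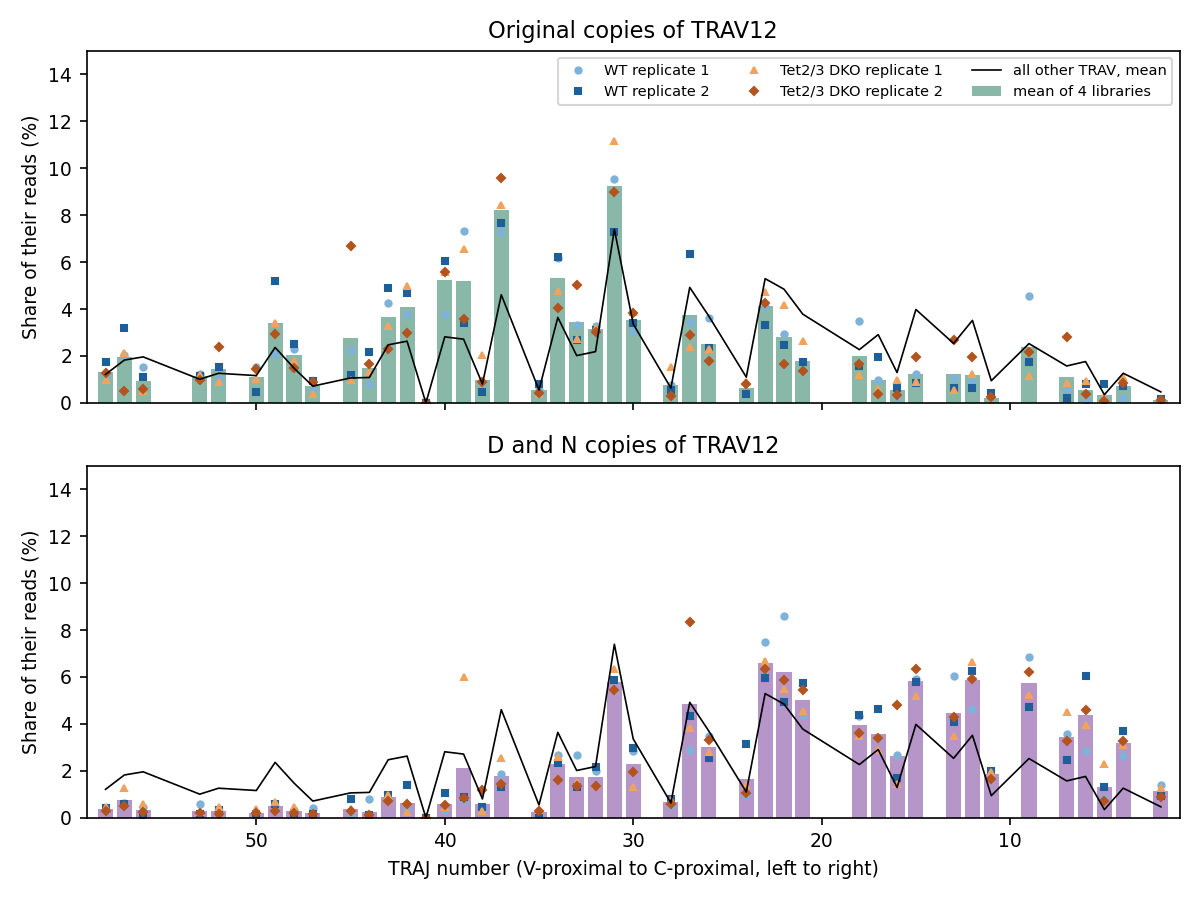
Share of reads (%) by TRAJ number, from TRAJ58 on the left to TRAJ2 on the right, for the original copies (top) and the D and N copies (bottom) of TRAV12. Bars are means of the 4 libraries, points single libraries and the black line the mean of all other TRAV. Above TRAJ40 the original copies hold 22.9% to 30.7% of their reads in a library and the D and N copies 3.98% to 6.13%, and at TRAJ20 and under the order is turned.

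Over the 44 J segments, the mean profile of original copies and that of D and N copies had a Pearson correlation of 0.21. The whole family's profile was most like those of TRAV6 (r = 0.93), TRAV7 (r = 0.91) and TRAV13 (r = 0.91) among 21 families of at least 500 reads. These correlations describe profiles that come from the same 4 libraries. A split between original and D/N copies was not particular to TRAV12. Of 13 families with at least 500 reads on both sides, all had a positive mean difference in TRAJ number, and that of TRAV12 was the third largest, after TRAV3 at 14.7 and TRAV4 at 14.5, while TRAV8 had 2.04. The libraries of TRAV12, from 11.49 to 13.81, overlapped with those of TRAV14 (11.24 to 13.97), TRAV9 (11.10 to 13.51) and TRAV13 (10.97 to 12.96). Its place among these was not resolved. As a whole TRAV12 used lower TRAJ numbers than all other V segments together. Its mean was 26.6 and 27.1 in WT against 26.9 and 26.1 in Tet2/3 DKO, and that of the others was 29.3, 29.0, 29.0 and 29.2 in the same order, a difference of -2.45 ± 0.52 (SD, n = 4) with the same sign in 4 of 4 libraries (exact sign permutation p = 0.125, adjusted p = 0.167). In out-of-frame clones alone this difference was -1.25, from -1.88 to -0.62 over the libraries.

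Between the genotypes, the mean TRAJ number of TRAV12 averaged 26.9 ± 0.33 in WT and 26.5 ± 0.54 in Tet2/3 DKO (SD over 2 libraries each), and the libraries overlapped (difference -0.36, exact permutation p = 0.667). With each clone counted once the means were 27.36 and 27.36 in WT against 26.77 and 26.14 in Tet2/3 DKO. They did not overlap and differed by -0.91 (exact permutation p = 0.333, the smallest possible). Minus the mean of the other V segments of the same library, they were -2.14 and -1.98 in WT against -2.53 and -2.73 in Tet2/3 DKO. The other V segments were thus also lower in both Tet2/3 DKO libraries. For TRAV12 the genotypes did not overlap either with each rearrangement counted once (-0.73), in out-of-frame clones (-0.72) and without the 10 largest TRAV12 clones of each library (-1.15). In-frame clones overlapped (-0.19). By group, TRAV12-1 had 33.4 and 31.4 in WT against 29.7 and 30.4 in Tet2/3 DKO, and TRAV12D/N-1 had 24.64 and 24.91 against 24.93 and 25.62. These 2 of the 6 groups did not overlap between genotypes, in opposite directions, against 37.3% of the 75 V segments of at least 500 reads. With each clone counted once TRAV12-1 still did not overlap, at 32.98 and 32.43 against 30.02 and 30.12. TRAV12D/N-1 did, at 24.70 and 24.93 against 24.40 and 24.82, and 1 clone with TRAJ27 held 254 of its 699 reads in Tet2/3 DKO replicate 2. In the edgeR test of V family and TRAJ pairs, 0 of 669 pairs were called (0% of pairs; 31 had an unadjusted p under 0.05, and DESeq2 called 0 with 29 at that level). Of the 43 TRAV12 pairs in it, TRAV12 with TRAJ38 alone had an unadjusted p under 0.05, with a log2 fold change of 1.22 (SE 0.52) and an adjusted p of 0.93.

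The next comparison was of the reading frame. A rearrangement whose V and J are joined out of frame codes for no chain, but its RNA can be present beside that of a productive rearrangement of the other allele. Out-of-frame clones held 20.7% and 18.2% of TRAV12 reads in WT against 18.9% and 19.5% in Tet2/3 DKO. With all other V segments they held 9.62%, 9.56%, 10.2% and 9.63%. In-frame clones held 78.1%, 81.0%, 80.1% and 79.8% of TRAV12 reads, a difference of -7.52 ± 1.32 percentage points from the other V segments (SD, n = 4; lower in 4 of 4 libraries, exact sign permutation p = 0.125, adjusted p = 0.167). Counted by clones instead of reads, 19.8% to 23.5% of TRAV12 clones and 12.6% to 13.2% of other clones were out of frame. Clones with no covered CDR3 held 0.587% to 1.13% of TRAV12 reads and 2.05% to 3.48% of other reads, and they count as neither in frame nor out of frame. In-frame TRAV12 clones held 3.48 to 4.30 reads each and out-of-frame ones 3.04 to 3.96, whereas with other V segments the in-frame clones held 4.31 to 5.65 and the out-of-frame ones 3.22 to 3.97.

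The members numbered 1 stood apart. TRAV12-1 had 40.8% and 30.1% of its reads out of frame in WT against 36.8% and 38.9% in Tet2/3 DKO. TRAV12D/N-1 had 40.8% and 35.8% in WT against 28.7% and 29.5% in Tet2/3 DKO. The other groups lay between 13.2% and 23.5% in every library, so the lowest library of either number 1 group, 28.7%, was above the highest of all others. Among the 75 V segments of at least 500 reads, TRAV12-1 had rank 6 and TRAV12D/N-1 rank 8 by mean out-of-frame share, at 36.7% and 33.7%, where the median segment had 10.2%. TRAV12-2 (18.6%), TRAV12D/N-3 (16.3%), TRAV12-3 (15.6%) and TRAV12D/N-2 (14.8%) were also above that median.

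**Figure D4:**
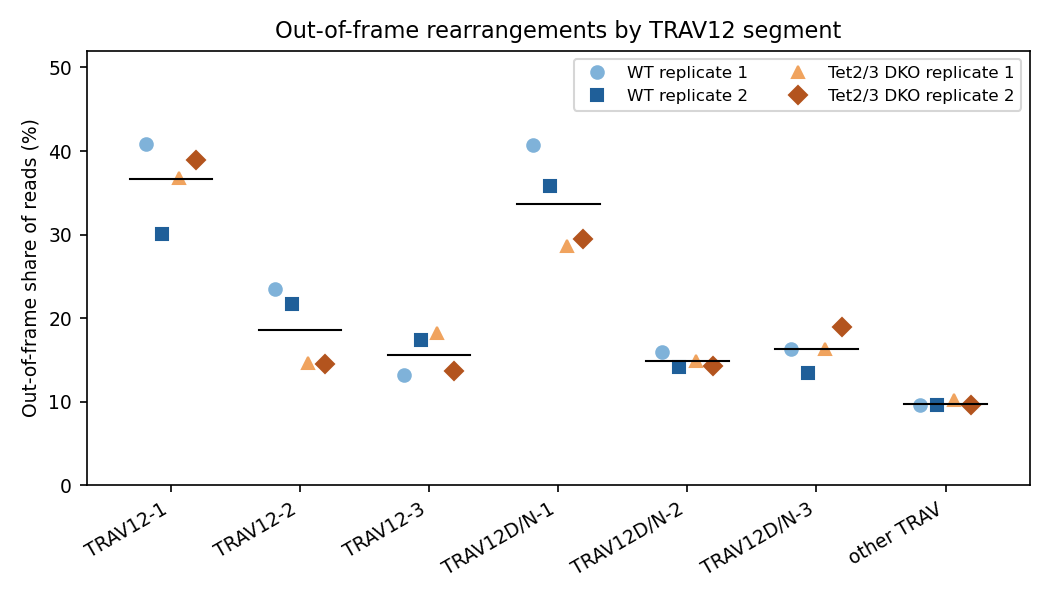
Out-of-frame share of reads (%, axis from 0) of the 6 TRAV12 groups and of all other TRAV, with 1 point per library and a line at the mean. TRAV12-1 and TRAV12D/N-1 lie between 28.7% and 40.8%, the other TRAV12 groups between 13.2% and 23.5%, and other TRAV between 9.56% and 10.2%.

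The listed names TRAV12D-2 and TRAV12N-2, whose commonest sequences from FR1 to FR3 were the same, differed in frame. Clones listed as TRAV12D-2 had 32.4% and 27.6% of their reads out of frame in WT against 24.2% and 25.5% in Tet2/3 DKO. Clones listed as TRAV12N-2 had 8.37% and 8.44% in WT against 11.04% and 10.2% in Tet2/3 DKO. By clones the shares were 22.6% to 29.0% and 10.5% to 13.7%, so the names did not overlap in either count, a difference for which no test was run. Their mean TRAJ numbers did overlap, at 19.4 to 21.6 and 19.3 to 20.9, and so did the number of V bases kept in the CDR3, at 11.1 to 11.8 and 11.2 to 11.5 per clone. What in the reads set the order of the pair of names cannot be read from the deposited sequences.

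Out-of-frame shares differed between the genotypes in no settled way. TRAV12-2 had 23.5% and 21.7% in WT against 14.6% and 14.5% in Tet2/3 DKO, and TRAV12D/N-1 was also lower in both Tet2/3 DKO libraries, while TRAV12D/N-3 was higher, at 16.36% and 19.0% against 16.27% and 13.5%. Counted by clones, TRAV12-2 had 28.1% and 17.8% in WT against 16.7% and 17.6% in Tet2/3 DKO. The genotypes did not overlap, but only WT replicate 1 stood far from the other libraries. TRAV12D/N-3 overlapped by clones, at 19.5% and 13.1% against 18.6% and 18.6%. TRAV12D/N-1 had 41.0% and 37.5% by clones against 31.3% and 36.9%, still without overlap. By reads these 3 of 6 groups did not overlap, against 34.7% of the 75 segments. For each the exact permutation p was 0.333, the smallest possible, and 0.889 after adjustment over the 24 tests of 4 measures in the 6 groups. The in-frame share of the whole family averaged 79.5% ± 2.1 in WT and 79.9% ± 0.3 in Tet2/3 DKO (SD over 2 libraries each; exact permutation p = 1).

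In-frame TRAV12 CDR3s were 13.3 and 13.5 residues long on average in the WT libraries against 13.5 and 13.6 in the Tet2/3 DKO libraries, counted from the conserved cysteine of V to the residue in J that closes the CDR3, in most J segments a phenylalanine or tryptophan, both included, and weighted by reads. To 2 decimals the values were 13.29, 13.48, 13.50 and 13.55, so the genotypes did not overlap. The same held for all other V segments, at 13.365 and 13.363 in WT against 13.40 and 13.45 in Tet2/3 DKO. The difference of 0.14 residues is close to the SD of 0.14 between the WT libraries (exact permutation p = 0.333, the smallest possible, adjusted p = 1 over 8 tests), and without WT replicate 1 it was 0.0470. The genotypes overlapped in the other 7 of these 8 single values. By group, TRAV12-3 had 13.1 and 13.5 in WT against 13.6 and 13.8 in Tet2/3 DKO, and TRAV12D/N-1 had 12.78 and 13.05 against 13.40 and 13.13. Both were longer in Tet2/3 DKO without overlap, which is 2 of 6 groups against 45.3% of the 75 segments. Against all other V segments, TRAV12 CDR3s were longer in 3 of 4 libraries, by 0.06 ± 0.09 residues (SD, n = 4; exact sign permutation p = 0.25). The difference was 0.106 without WT replicate 1 and 0.0303 with each clone counted once.

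The groups' CDR3s began with the same V-coded bases but for 1 position. Where a clone kept at least 14 bases, the commonest start was tgtgctTtgagtga for number 2 and tgtgctCtgagtga for numbers 1 and 3, with the differing base in capitals. Between the V and the J part, a TRAV12 clone held 2.26, 2.34, 2.25 and 2.31 bases on average in the order of libraries used above, and other clones 2.26 to 2.29. No base lay between V and J in 24.3% to 26.6% of TRAV12 clones and in 25.5% to 25.8% of other clones. The group means of inserted bases ran from 2.17 for TRAV12D/N-1 to 2.41 for TRAV12-2.

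The 3 most abundant TRAV12 clones of each library are shown by their CDR3, since the joint is what tells clones of one V and J apart. Bases that match neither the V nor the J segment are in capitals.
WT replicate 1, TRAV12-3 with TRAJ9, 64 reads: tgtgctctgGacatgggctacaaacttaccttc
WT replicate 1, TRAV12N-2 with TRAJ23, 57 reads: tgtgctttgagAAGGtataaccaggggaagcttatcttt
WT replicate 1, TRAV12-3 with TRAJ26, 54 reads: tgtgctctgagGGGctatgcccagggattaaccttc
WT replicate 2, TRAV12N-2 with TRAJ24, 86 reads: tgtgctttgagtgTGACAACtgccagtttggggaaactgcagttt
WT replicate 2, TRAV12D-3 with TRAJ6, 66 reads: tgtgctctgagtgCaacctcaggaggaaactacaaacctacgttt
WT replicate 2, TRAV12-3 with TRAJ57, 40 reads: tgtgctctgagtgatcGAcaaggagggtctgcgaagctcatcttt
Tet2/3 DKO replicate 1, TRAV12D-3 with TRAJ39, 148 reads: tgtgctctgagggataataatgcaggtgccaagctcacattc
Tet2/3 DKO replicate 1, TRAV12-3 with TRAJ37, 23 reads: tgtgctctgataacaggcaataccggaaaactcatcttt
Tet2/3 DKO replicate 1, TRAV12D-3 with TRAJ5, 21 reads: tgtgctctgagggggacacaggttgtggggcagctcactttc
Tet2/3 DKO replicate 2, TRAV12D-1 with TRAJ27, 254 reads: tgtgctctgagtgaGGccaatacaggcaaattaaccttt
Tet2/3 DKO replicate 2, TRAV12-3 with TRAJ45, 239 reads: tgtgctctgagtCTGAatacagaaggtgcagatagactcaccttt
Tet2/3 DKO replicate 2, TRAV12-1 with TRAJ33, 172 reads, out of frame: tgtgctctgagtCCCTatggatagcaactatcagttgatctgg
The largest of these, in Tet2/3 DKO replicate 2, held 0.0883% of its library's TCRα reads (95% Wilson interval 0.0781% to 0.0998%) and was the 39th largest TCRα clone there. In Tet2/3 DKO replicate 1 the TRAV12D-3 clone with TRAJ39 held 0.0759% (0.0646% to 0.0891%) and ranked 11th of all TCRα clones, while the next TRAV12 clone held 0.0118%. In the WT libraries the largest TRAV12 clones held 0.0371% and 0.0397%. Of these 12 rearrangements, the one of TRAV12-3 with TRAJ37 was seen in 3 libraries and the one of TRAV12D-3 with TRAJ5 in 2, both without an inserted base. The other 10 were seen in 1 library.

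The 10 largest TRAV12 clones held 7.65% and 5.28% of TRAV12 reads in WT against 5.02% and 13.96% in Tet2/3 DKO. The highest value and the lowest were thus both Tet2/3 DKO, and the genotypes overlapped (means 6.47% ± 1.68 and 9.49% ± 6.32, SD, n = 2 each; exact permutation p = 1). Without Tet2/3 DKO replicate 2, the difference of 3.02 percentage points became -1.45. Clones above 0.02% of TCRα reads numbered 5 and 2 in WT against 1 and 10 in Tet2/3 DKO, and all but 1 of them were in frame. This was 0.322%, 0.0978%, 0.0532% and 0.461% of TRAV12 clones, against 0.683%, 0.424%, 0.366% and 0.557% of other clones, a lower share in 4 of 4 libraries. The clones that together held 50% of TRAV12 reads numbered 325, 447, 435 and 344.

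**Figure D5:**
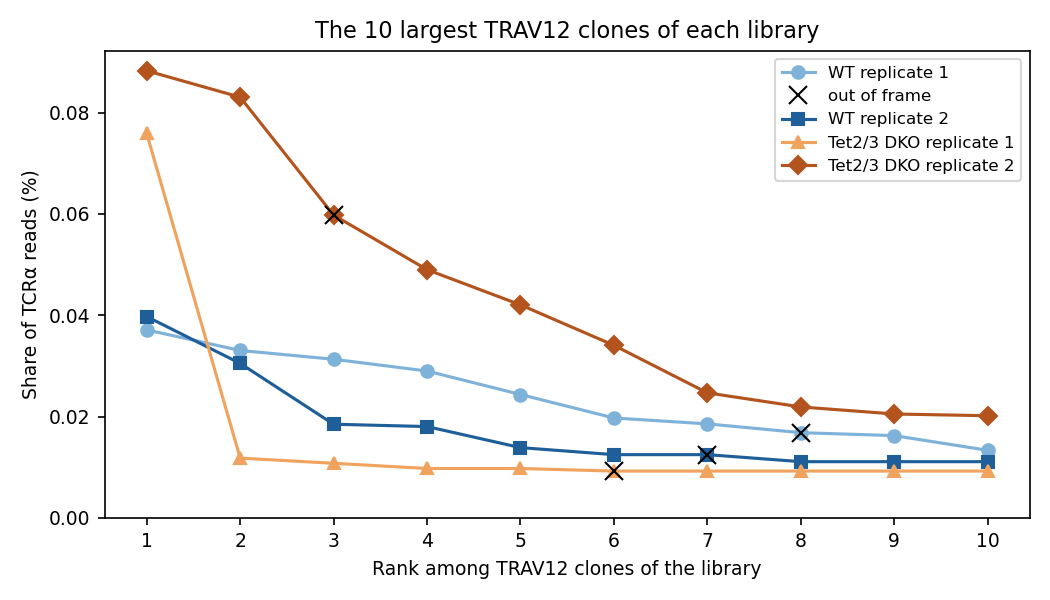
Share of TCRα reads (%, axis from 0) of the 10 largest TRAV12 clones of each library, by rank, with crosses on clones that are out of frame. Tet2/3 DKO replicate 2 lies above the other libraries at every rank, and Tet2/3 DKO replicate 1 drops from 0.0759% to 0.0118% after its first clone.

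Few TRAV12 chains recurred between mice. With D and N copies combined, there were 4580 in-frame chains, counted as combinations of V, J and CDR3 residues, of which 89.6% were seen in 1 library and 25, or 0.546%, in all 4. With the other V segments, 81.3% were seen in 1 library and 2.48% in all 4, and TRAV12 had the lowest share in all 4 among 16 families of at least 500 chains, next to TRAV5 at 0.627%. This is a description, since the share may also depend on how many clones of a family were sequenced, which was not tested. Of the 373 chains seen in exactly 2 libraries, 59 were in both WT, 76 in both Tet2/3 DKO and 238 in 1 of each genotype, which is 4 of the 6 possible pairs of libraries.

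By the listed V names, 18 chains were seen in all 4 libraries. Their clones held 0.475 inserted bases on average, against 2.53 in clones of chains seen in 1 library. The 5 with the largest mean share are shown by their commonest nucleotide version, with bases between V and J in capitals.
TRAV12N-2 with TRAJ21: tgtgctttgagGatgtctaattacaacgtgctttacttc
TRAV12N-2 with TRAJ18: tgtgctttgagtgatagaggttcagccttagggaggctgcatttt
TRAV12N-2 with TRAJ9: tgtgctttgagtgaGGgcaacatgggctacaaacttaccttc
TRAV12-3 with TRAJ37: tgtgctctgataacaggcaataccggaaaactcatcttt
TRAV12N-2 with TRAJ16: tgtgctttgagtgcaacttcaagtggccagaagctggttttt
The chain with TRAJ21 held 8, 27, 18 and 12 reads in WT replicate 1, WT replicate 2, Tet2/3 DKO replicate 1 and Tet2/3 DKO replicate 2, and 95.4% of these reads were of the version shown, with a single inserted base. Counted by rearrangement, the version shown held 12 reads in WT replicate 1, more than the 8 of the chain by its listed V name. The counts by chain leave out reads of the same J and CDR3 listed under another V name, so they can be partial. The chain with TRAJ18 held 13, 14, 10 and 29 reads, and that with TRAJ9 23, 12, 11 and 12. The TRAV12-3 chain with TRAJ37, whose commonest version was also among the largest clones of Tet2/3 DKO replicate 1, held 7, 3, 27 and 10. The chain with TRAJ16 held 12, 7, 14 and 8. All 5 were present at low level, with mean shares of 0.00504% to 0.00763% of TCRα reads, and 3 of the 5 versions shown had no base between V and J.

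A group of TRAV12 clones lacked FR1 altogether, because their deposited sequence began inside framework region 2. These were 183 clones with 602 reads, 2.33% and 2.50% of TRAV12 reads in WT against 2.29% and 1.61% in Tet2/3 DKO, whereas they held 1.07% to 1.26% with other V segments. Most were of the members numbered 2. In TRAV12-2 they held 12.1% and 8.46% of reads in WT against 5.67% and 9.40% in Tet2/3 DKO, and in TRAV12D/N-2 they held 3.67%, 5.24%, 5.36% and 2.36%. In TRAV12-3 and TRAV12D/N-1 there was none, in TRAV12-1 there was 1 clone with 1 read and in TRAV12D/N-3 there were 2 clones with 15 reads. Over the whole family the genotypes did not overlap, with Tet2/3 DKO lower (exact permutation p = 0.333, the smallest possible), and with other V segments Tet2/3 DKO was lower too, at 1.257% and 1.251% against 1.230% and 1.072%. In both groups numbered 2 they overlapped (exact permutation p = 0.667 and p = 1). Nor were such clones confined to this family: TRAV13 had 13.4% of its reads in them on average, and TRAV12 came second of 22 families.

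Of the 183 clones, 182 could be placed in the intact sequence, and 178 of these were TRAV12-2 or TRAV12D/N-2 clones that began at 1 of 2 points. The sequence around each is shown, with the retained bases in capitals; the lower-case bases are missing from these clones.
First point in TRAV12-2 and TRAV12D/N-2: ctcaacgaagCCCCTAAGCTAC
Second point in TRAV12-2 and TRAV12D/N-2: ccttttctggTATGTGCAACAT
At the first point, 127 bases were missing from 84 TRAV12-2 clones with 224 reads and from 62 TRAV12D/N-2 clones with 239 reads. The TRAV12-2 clones held 78 different rearrangements within libraries and the TRAV12D/N-2 clones 56, and both were found in all 4 libraries. At the second point, 105 bases were missing from 15 TRAV12-2 clones with 45 reads and from 17 TRAV12D/N-2 clones with 73 reads. This start was not particular to number 2, since the 2 TRAV12D/N-3 clones, with 15 reads in 2 libraries, began at the same letters, with 108 bases missing. TRAV12-1 has the letters gaagcccct at the same place as the first point, as its sequence above shows, and had 1 clone that began there, while TRAV12D/N-1 has them too and had none. In TRAV12-3 and TRAV12D/N-3 the letters there are gaatcccct, and no clone began there.

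For the purity of the sort, iNKT and MAIT chains were counted by segment without a check of CDR3 residues, so other chains may be among them. In-frame TRAV11 family chains with TRAJ18 and a 15-residue CDR3, as in iNKT cells, held 0.0620% and 0.0541% of TCRα reads in WT. In Tet2/3 DKO they held 0.0302% and 0.0191%. TRAV1 with TRAJ33, the pair of MAIT cells, in any frame and at any CDR3 length, held 0.00869% to 0.0287% over the 4 libraries. No TRAV12 clone is counted in either, and their part in the TRAV12 values was not tested.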

How the data were processed

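TCR transcripts were amplified from 20 ng of total RNA per library with a 5′ RACE kit without molecular identifiers and sequenced on a MiSeq. Per the labels and methods, the authors trimmed the reads with fastp 0.21.0, assembled clones with MiXCR and exported them per chain, with bcl2fastq 2.20.0 and the mm10 build named in the submitters' processing notes. The deposited TCRα tables give each clone's read count, which was used here, and its fraction of the library's reads, which equalled the count divided by the total. TCRβ tables were not used, since they hold no TRAV12 segment. Depth was 172506 to 287799 TCRα reads per library, and PCR copies are not independent molecules.

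The V segment of a clone was its first-listed hit. In frame means a CDR3 free of frameshift and stop codon, and inserted bases are CDR3 bases outside the listed V and J ends. Counts per V segment (101), V family (25) and family with TRAJ (669) were tested with edgeR 4.0.16 (glmQLFit and glmQLFTest on total reads, at least 10 reads, 50 for pairs, Benjamini-Hochberg threshold 0.05, SE from the log2 fold change and the F value). DESeq2 1.42.0 was an alternative. Single values were compared by exact two-sided permutation tests between genotypes and exact two-sided sign permutation tests within libraries, and p-values measure the spread between these libraries only. Values per segment were set beside those of all V segments of at least 500 reads, with D and N copies combined. The genes named were the TRAV12 segments, the J segments and families leading each ranking, the 3 largest clones per library and the 5 chains shared by all libraries with the largest mean share. The members and lists were chosen with earlier results of these data known. Positions are RefSeq's on GRCm38.p6. Alternatives covered the weight, clone definition, V assignment, filters, normalization, large clones, replicate block and leaving out each library. Same-numbered libraries share only a number. Thymic and transferred cells of the study were not analysed here.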

Additional observations from a re-analysis of the deposited data

How the results depend on the processing

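With 2 libraries per genotype and 1 read in 28.2% to 30.6% of TRAV12 clones, small differences were not detectable, and no TRAV12 feature was called under any setting run. The within-library differences kept their sign in every setting. Leaving out each library in turn gave -2.62 to -2.24 for the mean TRAJ number against other V segments (-1.25 in out-of-frame clones), 12.1 to 12.9 for original against D and N copies, -8.00 to -7.10 percentage points for the in-frame share and 0.0410 to 0.106 residues for CDR3 length.

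Of the differences between genotypes (Tet2/3 DKO minus WT), those in CDR3 length, in the share of D copies and in TRAV12-3 and TRAV12D-2 usage kept their sign under every alternative run, but not their size. The share of D copies nevertheless overlapped between genotypes, at 36.4% and 34.9% in WT against 36.3% and 36.8% in Tet2/3 DKO. Both this share and TRAV12D-2 usage rest on how ties were listed. Leaving out each library gave 0.0470 to 0.240 residues for CDR3 length (lowest without WT replicate 1, highest without WT replicate 2), 0.0937 to 1.66 points for the share of D copies (lowest without WT replicate 2, highest without WT replicate 1) and log2 fold changes of -0.25 to -0.072 for TRAV12-3 (without WT replicates 1 and 2 in turn) and -0.42 to -0.013 for TRAV12D-2 (without Tet2/3 DKO replicates 1 and 2 in turn). The others changed sign under at least 1, and the cause was not tested. Leaving out each library gave -0.163 to 0.0935 points for the family's share of reads (0.0112 without Tet2/3 DKO replicate 2), -2.19 to 0.283 for the share of original copies, -1.44 to 1.60 for that of N copies (-0.984 without WT replicate 1), -0.742 to 0.0224 for the mean TRAJ number, -1.08 to 1.89 for the in-frame share and -1.45 to 7.49 for the 10 largest clones. Without the 10 largest clones of each library, none of them TRAV12, the family's share differed by 0.0024 points, its log2 fold change was 0.00099 and that of TRAV12N-2 0.0033. Counting each clone once gave log2 fold changes of -0.090 for TRAV12-1, -0.013 for TRAV12-2 and 0.11 for TRAV12N-2. Counting each rearrangement once gave -0.11, -0.048 and 0.089, and -0.054 for TRAV12D-1. In-frame clones gave -0.0027 for TRAV12D-3. For TRAV12N-2, clones with a single V hit gave 0.14 and DESeq2 0.014. Leaving out each library gave log2 fold changes of -0.085 to 0.26 for TRAV12-1 (-0.073 without Tet2/3 DKO replicate 2), -0.10 to 0.26 for TRAV12-2, -0.0069 to 0.46 for TRAV12D-1, -0.15 to 0.13 for TRAV12N-2 (0.12 without Tet2/3 DKO replicate 2) and -0.071 to 0.042 for the family (0.0048 without Tet2/3 DKO replicate 2).

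Over all features, the pairs called rose from 0 to 6 of 902 with no filter, 4 of 627 without Tet2/3 DKO replicate 2 and 25 of 642 without Tet2/3 DKO replicate 1, where 4 of 101 segments were called too (with 1 library left in that genotype, the spread comes from the WT libraries and the lone library is assumed to vary like them), and in-frame clones gave 1 family. With the replicate number as a block, 0 segments, 0 families and 2 pairs were called, none with TRAV12; deviations of same-numbered libraries correlated at 0.126. Copy shares from clones with a single V hit could not be given, as every TRAV12D-1 and TRAV12D-3 clone has more than 1 hit. Combining D and N copies, leaving out clones without FR1 and leaving out the 10 largest TRAV12 clones were chosen after seeing the data and changed no sign.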
